A study of Mus musculus with 2 samples.

Results

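In mouse melanoma grafts, 116 cells were chosen by their transcripts as fibroblast-like stroma: cells with no Ptprc, Hmga2 or Cd3e molecule, at most 1 Csf1r molecule, and 20 or more molecules summed over the 5 matrix genes Col1a2, Col3a1, Mgp, Apod and Bgn. They are called members below, and they were 116 of the 10100 cells in the deposited count table, 96 of 4524 in the WT library and 20 of 5576 in the Siah2-/- library. Tumors of the melanoma line YUMMER1.7, which is driven by mutant Braf and carries many somatic mutations, were grown for 11 days in 8-week-old male C57BL/6 hosts, wild type (WT) in one group and Siah2-/- in the other, the deleted gene being that of a ubiquitin ligase. CD45-positive cells (CD45 is the leukocyte surface protein encoded by Ptprc) were sorted from the tumors of each genotype and sorted CD45-negative cells were added back, in a proportion given as 5 to 1 in the protocol and as a smaller CD45-negative part in the series description. Each genotype gave 1 droplet library (10x Genomics 3′ v2), so genotype, tumors, sort, mixing and library cannot be told apart, and no difference between the libraries has a replicate check. The genotype is that of the host, while an injected tumor cell would carry its own Siah2 in both hosts.

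Fibroblasts build and remodel the collagen matrix of a tissue. They secrete fibrillar collagens together with small proteoglycans that space the fibrils, such as decorin (Dcn), lumican (Lum) and biglycan (Bgn), and they cross-link the product with lysyl oxidases. In tumors they are known as sources of growth factors and chemokines. Mgp encodes matrix Gla protein, an inhibitor of calcification, and Apod encodes the lipid carrier apolipoprotein D. Hmga2 encodes an architectural chromatin protein that is silent in most adult tissues and is frequently re-expressed in tumors, and the rule used its absence to set the members apart from other CD45-negative cells. Melanoma cells can carry a mesenchymal expression state with matrix genes of this kind, so matrix genes alone do not name a lineage.

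Values are counts of unique molecular identifiers (UMIs), each a captured transcript, summed over the cells of a library and given as counts per 1000000 UMIs (CPM). A log2 ratio compares 2 such sums after 0.5 UMI was added to each. Its 95% interval in brackets covers counting error only, not variation between tumors or between cells. The members held 1762189 UMIs in WT and 394704 in Siah2-/-. A member had a median of 17802 UMIs in WT (range 8554 to 31593) and 20754 in Siah2-/- (range 5035 to 31326), against 11426 and 8683 over all cells. The medians of genes seen per member were 4022 and 4074. The libraries shared 34 barcodes among all cells. Of the WT members 2 had a barcode that also belonged to a Siah2-/- cell, and 0 the other way round.

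The 5 rule genes lie on 4 chromosomes of the GRCm38 build: Mgp at chr6:136872435-136875823, Col1a2 at chr6:4504814-4541544, Col3a1 at chr1:45311538-45349706, Apod at chr16:31296192-31314808 and Bgn at chrX:73483602-73495933. Hmga2 lies at chr10:120361275-120476469. These values chose the members, so they are described without a test. Mgp was by far the largest of the 5, at 17432 CPM in WT members and 5903 CPM in Siah2-/- members. It ranged from 50.8 to 96483 CPM over the 96 WT members (median 8944) and from 305 to 21354 CPM over the 20 Siah2-/- members (median 2719), and 28 of the 96 WT members lay above the highest Siah2-/- member. Bgn differed little, at 3815 and 3539 CPM. Apod stood at 2361 and 1738 CPM, Col1a2 at 1776 and 1224 CPM, and Col3a1, the type III fibrillar collagen, at 1467 and 788 CPM. Together the 5 genes made up a median of 1.82% of the UMIs of a WT member (range 0.228% to 11.7%) and 0.980% of a Siah2-/- member (range 0.144% to 4.24%). The threshold of 20 UMIs cut through a gap: 2 WT members had 28 and 36 UMIs of these genes, 5 Siah2-/- members had 20 to 36, and no cell that met the other conditions had 10 to 19. The nearest such cells outside the threshold had 4 UMIs in WT and 8 in Siah2-/-.

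The label of a fibroblast was checked against 13 fibroblast markers, 4 of them genes of the rule, and the check was mixed. All 13 were seen in at least 1 member. Decorin, a collagen-binding proteoglycan, had a UMI in 83 of 96 WT members (86.5%, exact 95% interval 78.0 to 92.6) and in 18 of 20 Siah2-/- members (90.0%, 68.3 to 98.8). Of the Hmga2-positive cells described below, 75.5% in WT and 88.3% in Siah2-/- had a UMI of it. Pdgfra, the receptor for platelet-derived growth factor A that marks many mesenchymal cells, was seen in 73 WT members (76.0%) and 15 Siah2-/- members (75%), against 3.67% and 1.13% of the cells with a Ptprc UMI, whose transcripts of this gene can come from free RNA. In the deeper Hmga2-positive cells described below it was seen in 68.9% and 79.2%. After each cell was thinned to 3000 UMIs, Pdgfra was seen in 34.4% of WT members (24.98 to 44.8) and 19.7% of WT Hmga2-positive cells (16.4 to 23.4), and in 30% (11.9 to 54.3) and 15.6% (8.32 to 25.6) in Siah2-/-. In the same order, thinned Dcn was seen in 51.0% and 36.1%, then 55% and 46.8%. Postn was seen in 40.6% and 23.5%, then 25% and 23.4%. Col1a1 was seen in 27.1% and 16.5% in WT, but in 15% and 22.1% in Siah2-/-. For Lum the shares were 15.6% and 5.88%, then 5% and 10.4%. For Pdgfrb they were 25% and 22.8%, then 15% and 18.2%. The exact Siah2-/- intervals overlapped in each pair. At full depth Col1a1, usually the most abundant fibroblast collagen, had a UMI in only 49 WT and 9 Siah2-/- members. Dpt was seen in 15 and 3. Fbln1, a fibulin of adult connective tissue, was seen in 2 WT members and no Siah2-/- member, and the adventitial genes Pi16 and Dpp4 were each seen in 1 WT member. The floor used for a count of 0, 3 cells of the total, is 15% for 20 cells.

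Among the markers of other lineages, the macrophage genes had the highest sum of the leukocyte lists, 236 CPM in WT and 517 CPM in Siah2-/- members, and the T cell genes summed to 22.7 and 65.9 CPM. The macrophage gene Lyz2 had a UMI in 68 of 96 and 19 of 20 members, and Cd74 in 91 of 96 and 20 of 20. These transcripts are set beside those of empty droplets further on. Lists of other stromal and pigment lineages summed to less than the macrophage list. Over the 3 measured mural genes the members summed to 16.5 CPM in WT and 20.3 CPM in Siah2-/-, over the 6 endothelial genes to 3.97 and 7.60 CPM, and over 9 melanocyte and Schwann cell genes to 30.1 and 40.5 CPM, with Kcnj8, Kdr, Vwf, Dct and Erbb3 at 0 UMIs (0 of all members' UMIs allows up to 1.39 CPM). The last list was led by S100b, which had a UMI in 18 of 96 and 5 of 20 members. The defining pigment genes Pmel, Mlana, Tyrp1 and Dct summed to 1 UMI in WT and 3 in Siah2-/-. The defining genes of B cells, Cd79a, Cd79b and Ms4a1, were at 0, and skeletal muscle, epithelial, mast cell and red cell lists had at most 3 UMIs in either library. The contractile genes Acta2, Tagln and Myl9, which mark activated myofibroblasts, had 7, 1 and 1 UMIs in WT and 0 in Siah2-/-.

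The members were also set beside the Hmga2-positive CD45-negative cells of the same library, defined as cells with no Ptprc and Cd3e UMI, at most 1 Csf1r UMI and at least 1 Hmga2 UMI (527 in WT and 77 in Siah2-/-). Of these 604 cells, 599 also reached 20 UMIs of the 5 matrix genes. Across 7330 genes at 10 CPM or more in the members, log2 CPM of members and Hmga2-positive cells correlated with r = 0.96 in WT and 0.94 in Siah2-/-, while members and Ptprc-positive cells correlated with r = 0.74 and 0.70. The genes were filtered on their level in the members, and the Hmga2-positive cells share the Ptprc, Cd3e and Csf1r conditions of the rule, so part of the difference between these values is built in. Genes are not independent replicates and the sums share a library, so these are descriptions. Sox9, a transcription factor best known from neural crest and chondrocyte lineages, stood at 164 CPM in WT members and 130 CPM in WT Hmga2-positive cells, and at 152 and 155 CPM in Siah2-/-. It was seen in 81 of 96 and 13 of 20 members, against 4.20% and 1.36% of Ptprc-positive cells. After each cell was thinned to 3000 UMIs, Sox9 was seen in 35.4% of WT members and 27.7% of WT Hmga2-positive cells, and in 35% and 46.8% in Siah2-/-. Given the mixed marker check, the members are named by the rule here and not called fibroblasts.

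**Figure D1:**
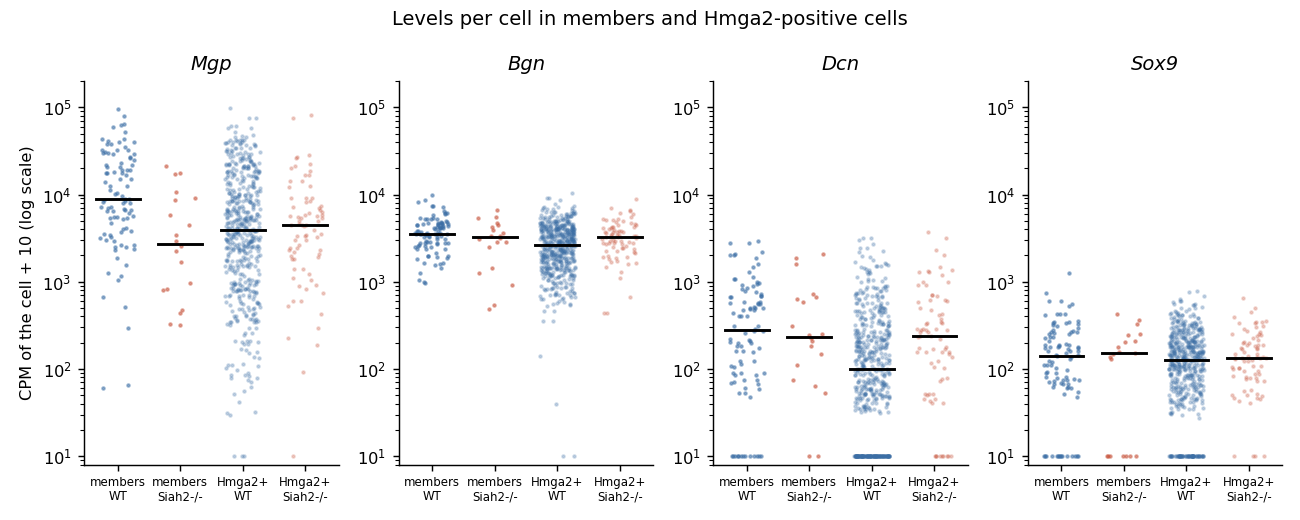
Each point is a cell, with CPM of the cell plus 10 on a log axis, for Mgp, Bgn, Dcn and Sox9 in members and Hmga2-positive CD45-negative cells of the WT and Siah2-/- libraries. Black lines are medians over cells. The groups overlapped for each of the 4 genes, and the highest Sox9 level, 1261 CPM, was in a WT member.

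Cells without a Hmga2 UMI were a smaller share of the deepest cells. Among cells that met the other conditions, those without a Hmga2 UMI were 6 of 19 in WT below 10000 UMIs (31.6%), 14 of 51 from 10000 to below 15000 UMIs (27.5%), 45 of 153 from 15000 to below 20000 UMIs (29.4%), 29 of 241 from 20000 to below 30000 UMIs (12.0%) and 2 of 155 at 30000 UMIs or more (1.29%, exact interval 0.157 to 4.58). In Siah2-/- the same shares ran from 4 of 6 at the lowest depth to 9 of 63 from 20000 to below 30000 UMIs (14.3%) and 2 of 17 above. Hmga2 was itself a low-count gene: 122 of the 604 Hmga2-positive cells held 1 UMI of it, and the median was 3 UMIs. In WT its mean was 4.29 UMIs from 20000 to below 30000 UMIs and 14.6 UMIs above, so its level differed with depth too, and the parts of depth and level in the share cannot be told apart. How many members would have shown Hmga2 at greater depth was not tested. Over all cells that met the other conditions, the members were 96 of 619 in WT (15.5%, 12.7 to 18.6) and 20 of 96 in Siah2-/- (20.8%, 13.2 to 30.3).

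**Figure D2:**
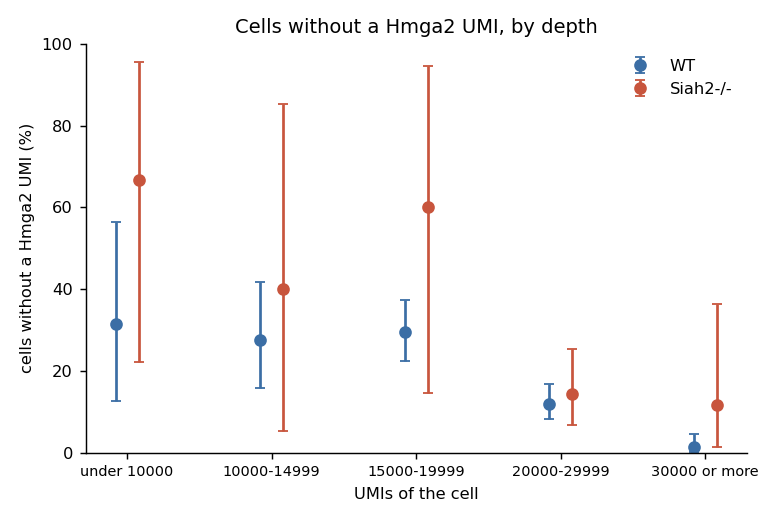
Share of cells without a Hmga2 UMI, in percent, among cells that met the other conditions of the rule, by the UMIs of the cell, for the WT and Siah2-/- libraries. Points are shares and bars exact 95% intervals for counting error. The WT share was 31.6% below 10000 UMIs and 1.29% at 30000 UMIs or more.

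The leading genes were taken as the 25 genes outside the rule with the highest ratio of CPM in members over all other cells among genes at 100 CPM or more. Those reported here were matrix genes (Lum, Col1a1, Aspn, Mfap4, Postn, Dcn, Sparcl1 and Col6a2), the heparin-binding growth factor pleiotrophin (Ptn), the growth arrest and hedgehog co-receptor gene Gas1, the retinaldehyde dehydrogenase Aldh1a1, the copper carrier ceruloplasmin (Cp), the lipid phosphate phosphatases Plpp1 and Plpp3, the ferritin receptor Scara5, the scavenger receptor Colec12 and Pdgfra, together with Nbl1, S100a16, Igsf3, Inmt, Prss23, Tsc22d1 and Itm2a. Ptn had the highest level of them, at 2110 CPM in WT and 1452 CPM in Siah2-/- members, and was seen in 107 of all 116. Sparcl1 was the most widely seen, in 114 members, at 1311 and 1267 CPM. Lum, which led by ratio at 158 CPM over all members against 9.40 CPM in all other cells, was seen in only 33 members, and Col1a1 in 58. All 25 were at least 2-fold higher in members than in Ptprc-positive cells of their library. These genes were chosen for their level in members over all other cells, so their direction is no finding. The same holds for their ratio over Hmga2-positive cells, where 14 of 25 were at least 2-fold higher in WT members and 1 of 25 in Siah2-/- members, where 1 was lower.

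**Figure D3:**
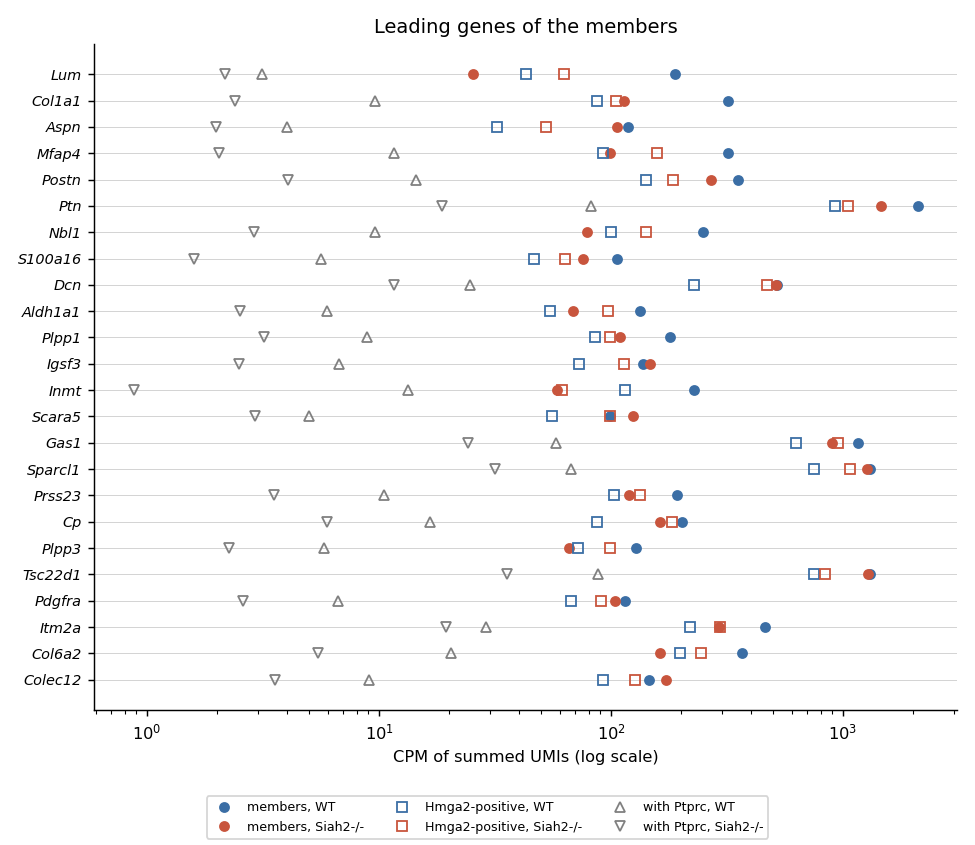
CPM of summed UMIs (log axis) of 24 of the 25 leading genes, with filled circles for members, open squares for Hmga2-positive CD45-negative cells and grey triangles for cells with a Ptprc UMI, in WT and Siah2-/- libraries. The Ptprc-positive cells lie to the left for every gene, and the summed level of Lum was 188 CPM in WT members, where 29 of 96 cells had a UMI, and 25.3 CPM in Siah2-/- members, where 4 of 20 had.

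Within the WT library, members were set against Hmga2-positive cells. Of 11232 genes with 20 or more UMIs over both, 3.72% were at least 2-fold higher in members and 6.79% at least 2-fold lower, with a median log2 ratio of 0.00 over all genes. Between cells of 15000 to below 30000 UMIs these shares were 1.87% and 3.65%, and with a matrix share of 0.5% or more in both they were 2.09% and 4.05%. The matrix glycoproteins and proteoglycans were higher as a group: 14 of 27 were at least 2-fold higher and none lower, with a median log2 ratio of 1.08. Lum was at 188 CPM in members and 43.1 CPM in Hmga2-positive cells, and Dcn at 522 and 228 CPM. Mfap4, a microfibril protein, was at 320 and 92.2 CPM. Fibrillar collagens had 1 of 6 at least 2-fold higher (Col1a1, 319 against 86.7 CPM) and a median of 0.75. A single member, described below with its Mfap5 UMIs, held 47.2% of the WT Col1a1 UMIs, and without it Col1a1 was at 170 CPM, 0 of 6 were past 2-fold and the median was 0.64. Without this cell the matrix glycoproteins had 12 of 26 higher and a median of 0.76, and complement 5 of 6 and 1.32. Complement genes had 6 of 7 at least 2-fold higher and a median of 1.45. Among growth factors, receptors and their modulators, 3 of 28 were higher and 1 lower. Those higher were Igf1 (27.8 against 8.12 CPM), the insulin-like growth factor binding proteins Igfbp4 (511 against 186 CPM) and Igfbp7 (78.9 against 19.5 CPM, and 48.7 CPM without the single cell), and the one lower was the activin inhibitor Fst (10.2 against 27.7 CPM).

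Cell cycle genes went the other way in WT. Of 17 listed, 15 were at least 2-fold lower in members than in Hmga2-positive cells, none was higher, and the median log2 ratio was -2.04. Mki67, the proliferation antigen, was seen in 3 of 96 members and 125 of 527 Hmga2-positive cells, at 2.84 and 27.1 CPM. Ccna2, cyclin A2, was at 1.70 and 45.3 CPM, and Birc5, which encodes survivin, at 21.0 and 147 CPM. Depth moved with these differences, since WT Hmga2-positive cells had a median of 23674 UMIs. Between cells of 15000 to below 30000 UMIs (74 members and 320 Hmga2-positive cells, a range chosen after the data were seen) the median of the cell cycle list was -1.29, that of the matrix glycoproteins 0.60 and that of complement 0.87.

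The same contrast was made within the Siah2-/- library. Of 7937 genes with 20 or more UMIs over its members and Hmga2-positive cells, 1.9% were at least 2-fold higher in members and 7.22% at least 2-fold lower, with a median log2 ratio of -0.06. Cell cycle genes had 3 of 15 at least 2-fold higher and none lower, with a median of 0.24. Those higher were Ube2c, which was at 60.8 CPM in members and 13.7 CPM in Hmga2-positive cells, Rrm2 (22.8 against 11.7 CPM) and the inhibitor Cdkn1b (45.6 against 21.4 CPM). Matrix glycoproteins were divided, 3 of 22 higher and 4 lower, with a median of 0.02. Interferon response genes were lower as a group, 11 of 25 at least 2-fold lower and none higher, with a median of -0.86. Among them were the guanylate-binding protein Gbp2 (279 against 713 CPM), the immunity-related GTPase Iigp1 (377 against 800 CPM) and Ifit1 (433 against 885 CPM). Chemokines and cytokines, a list that shares Cxcl9 and Cxcl10 with the interferon genes, had 7 of 10 at least 2-fold lower and a median of -1.62. Ccl2, which attracts monocytes, was at 53.2 CPM in members and 596 CPM in Hmga2-positive cells, and Cxcl10, a ligand of Cxcr3 on T cells, at 58.3 and 552 CPM. In WT the same 2 genes were at 98.2 against 358 CPM and at 157 against 314 CPM, while the interferon list had a median of 0.07 with 0 of 25 past 2-fold in either direction. These sums are carried in part by a few cells. The summed cytokine list per cell had a median of 367 CPM in Siah2-/- members and 443 CPM in Siah2-/- Hmga2-positive cells, with a highest cell at 1001 and 24837 CPM, and in WT the medians were 410 CPM in members and 361 CPM in Hmga2-positive cells. The interferon list per cell had medians of 9821 and 12620 CPM in Siah2-/-. Complement genes, of which 6 of 7 were higher in WT, had 0 of 6 past 2-fold in either direction in Siah2-/- and a median of 0.07. Between cells of 15000 to below 30000 UMIs in Siah2-/-, 12 members and 56 Hmga2-positive cells, the interferon median was -0.73 and the chemokine median -1.41. Whether the 2 libraries differ in these contrasts was not tested, since each has 1 sample.

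Levels varied among the members along their matrix share, the share of UMIs in the 5 genes that chose them. Since the rule used these genes, what follows is a description and no contrast between the libraries is drawn from it. Over the 96 WT and 20 Siah2-/- members Spearman's rho of the matrix share was -0.29 and -0.51 with the summed cell cycle genes, -0.56 and -0.72 with glycolysis and hypoxia genes, and -0.38 and -0.77 with Hmga1, which encodes a chromatin protein related to that of Hmga2. It was 0.54 and 0.72 with Ptn, and 0.60 and 0.59 with the matrix glycoproteins. The cells of a library share depth and free RNA, so these are descriptions. At the low end, 11 members held under 0.5% of their UMIs in the 5 matrix genes, 5 of 96 in WT and 6 of 20 in Siah2-/-. This cut was set after the values were seen. Over the other 105 members, the 11 had list medians of -2.51 for matrix glycoproteins, -2.31 for other collagens and -2.19 for fibrillar collagens. Growth factors, receptors and their modulators stood at -1.61 and cytokines and chemokines at -1.51. Cell cycle genes stood at 2.27, glycolysis and hypoxia genes at 0.97, and all genes at -0.37. In these 11 cells Hmga1 stood at 641 CPM against 26.3 CPM in the other 105, the centromere histone Cenpa at 287 against 18.7 CPM, Birc5 at 160 against 10.6 CPM, Ube2c at 188 against 14.7 CPM, and the cytokine Mif at 1701 against 294 CPM. Mfap4, Lum, Aldh1a1, Aspn and Igfbp7 had 0 UMIs in them, where 0 allows up to 16.6 CPM, and stood at 305, 173, 133, 127 and 74.9 CPM in the others. Ptn was at 77.3 and 2165 CPM. Each of Hmga1, Mif and Cenpa was seen in 7 or more of the 11 cells, and no cell held over 27.6% of their UMIs.

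**Figure D4:**
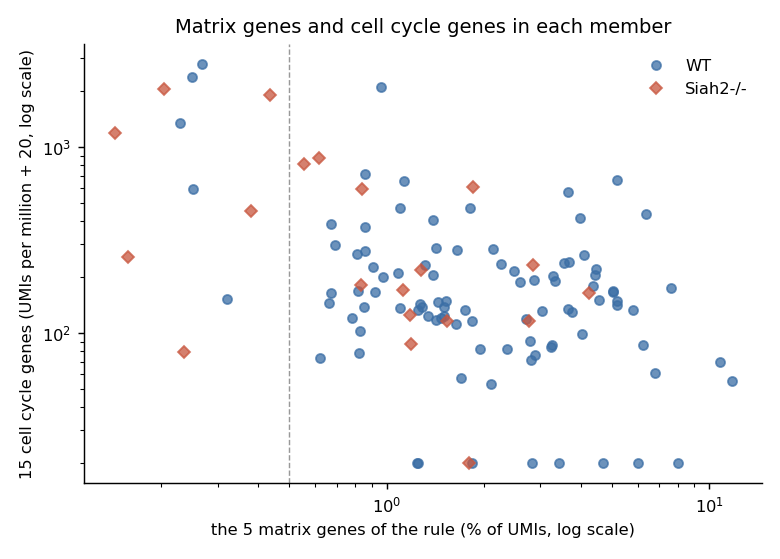
Each point is a member, with the share of its UMIs in the 5 matrix genes of the rule (percent, log axis) against UMIs per 1000000 of 15 cell cycle genes plus 20 (log axis), for WT and Siah2-/-. The dashed line is at 0.5%. Below it lie 5 WT and 6 Siah2-/- members, among them the highest cell cycle sum, 2779 UMIs per 1000000 in a WT member.

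A single WT member stood apart in the other direction. It held 143 of the 144 Mfap5 UMIs of all members, with 31 Gpx3 UMIs, 14 Ebf1, 9 Fbln2, 8 Loxl2, 4 Col14a1 and 3 Pi16 UMIs, none of which had a UMI in any of the other 115 members. It also held 271 of the Crip1 UMIs against 78 in all the others, 24 of 43 Clec3b UMIs, and 266 of the 563 Col1a1 UMIs of the WT members. Sox9, with 349 UMIs over 94 of the 115 others, had none in this cell, which had 18086 UMIs in all. Mfap5, Pi16, Fbln2, Clec3b and Col14a1 are genes known from adventitial and interstitial fibroblasts. The cell was chosen after its values were seen. It was the main source of Mfap5, Fbln1 (5 of 6 UMIs) and Serping1 (24 of 26 WT UMIs) in the lists above.

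The share of members in the Siah2-/- library was lower or higher than in WT depending on the cells it was taken over. Members were 2.12% of all cells in WT (96 of 4524, exact interval 1.72 to 2.59) and 0.359% in Siah2-/- (20 of 5576, 0.219 to 0.553), a log2 ratio of -2.56 (-3.34 to -1.86). Hmga2-positive CD45-negative cells were 11.6% and 1.38%, a log2 ratio of -3.08 (-3.44 to -2.73). Both shares depend on how many CD45-negative cells were sorted and mixed into each library, so they do not measure the makeup of the tumors. Among cells without a Ptprc UMI, which also include leukocytes whose Ptprc was not captured, members were 9.81% in WT (96 of 979, 8.02 to 11.8) and 4.52% in Siah2-/- (20 of 442, 2.79 to 6.90), a log2 ratio of -1.12 (-1.89 to -0.41). That denominator differed in makeup. Cells with over 1 Csf1r UMI or a Cd3e UMI were 308 of the 979 WT cells (31.5%) and 272 of the 442 Siah2-/- cells (61.5%). Hmga2-positive cells were 527 (53.8%) and 77 (17.4%), and the remaining 48 (4.90%) and 73 (16.5%) had no Hmga2 UMI and fewer than 20 UMIs of the 5 matrix genes. Among cells that met every condition of the rule but that on Hmga2, the direction turned: members were 15.5% in WT and 20.8% in Siah2-/-, a log2 ratio of 0.43 (-0.35 to 1.13), an interval that holds 0.

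Between the members of the 2 libraries, 3.29% of 7601 genes with 20 or more UMIs were at least 2-fold higher in Siah2-/- and 7.43% at least 2-fold lower, with a median log2 ratio of -0.07. Many of these rest on few transcripts, since 387 of the 565 lower genes had at most 3 UMIs in Siah2-/- members. Fibrillar collagens had 3 of 6 at least 2-fold lower and none higher, with a median of -0.87. Col1a1 was at 319 CPM in WT and 114 CPM in Siah2-/-, a log2 ratio of -1.47 (-1.96 to -1.05), but 47.2% of its WT UMIs came from the single cell described above, and 9 of 20 Siah2-/- members had any. Without that cell the ratio of Col1a1 was -0.57 (-1.06 to -0.12), 1 of 6 fibrillar collagens was at least 2-fold lower and the list median was -0.49. Col5a1 was at 85.1 and 38.0 CPM, a ratio of -1.12 (-2.04 to -0.40), which was -0.82 (-1.74 to -0.077) without that cell. The gene still past 2-fold without it was Col27a1, with 19 and 1 UMIs. Col11a1 was at 38.0 and 48.1 CPM, 0.37 (-0.48 to 1.09).

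Of the other collagens 2 of 7 were at least 2-fold lower in Siah2-/- and none higher, with a median of -0.79. Both were chains of the beaded filament collagen VI: Col6a1 at 637 and 299 CPM, a log2 ratio of -1.09 (-1.38 to -0.82), and Col6a2 at 367 and 162 CPM, a ratio of -1.17 (-1.57 to -0.81). With members of a matrix share of 0.5% or more the ratios were -0.91 and -0.90, and as a mean over cells that of Col6a1 was -0.98. The third chain, Col6a3, was at 182 and 104 CPM, -0.79 (-1.31 to -0.33). No cell held over 6.18% of the WT UMIs of Col6a1 or Col6a2. In Hmga2-positive cells Col6a1 was at 377 CPM in WT and 449 CPM in Siah2-/-, and Col6a2 at 198 and 244 CPM. Col18a1, whose product carries endostatin, was at 282 and 276 CPM in the members, -0.03 (-0.34 to 0.27).

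Matrix glycoproteins and proteoglycans had 7 of 23 at least 2-fold lower in Siah2-/- members, none higher, and a median of -0.41. One of the 7 was Mfap5, whose WT UMIs lay in the single cell described above. Members with a matrix share under 0.5%, where this list was lower, were 5 of 96 in WT and 6 of 20 in Siah2-/-. What part they take in this list and in the collagen, cytokine and growth factor lists was not tested. Lum was at 188 CPM in WT and 25.3 CPM in Siah2-/-, a ratio of -2.82 (-3.96 to -1.99). It was seen in 29 of 96 (30.2%, 21.3 to 40.4) and 4 of 20 members (20%, 5.73 to 43.7), so most cells of both libraries had none. The ratio was -1.62 as a mean over cells, -3.87 among cells with 40 or more matrix UMIs and -4.09 over members of 15000 to below 30000 UMIs. Mfap4 was at 320 and 98.8 CPM, -1.68 (-2.20 to -1.23), and fibrillin 1 (Fbn1) at 67.5 and 22.8 CPM, -1.49 (-2.73 to -0.59). Of the 23 genes, 19 had a ratio below 0 and 4 above. Without the single WT cell Sparc was at 1717 and 1178 CPM, -0.54 (-0.69 to -0.40). Ogn was then at 83.7 and 45.6 CPM, -0.84 (-1.67 to -0.17). With all WT members kept, some genes of the list had nearly equal levels. Dcn was at 522 and 512 CPM, -0.02 (-0.25 to 0.19), Sparcl1 at 1311 and 1267 CPM, -0.05 (-0.19 to 0.09), and Efemp1 at 361 and 362 CPM, 0.01 (-0.27 to 0.27). Collagen processing enzymes, including the chaperone Serpinh1 (815 and 654 CPM) and the procollagen enhancer Pcolce (952 and 760 CPM), had 0 of 16 past 2-fold in either direction and a median of 0.04. Of the proteases and inhibitors 1 of 17 was higher and 2 lower, with a median of -0.05. Gelatinase A (Mmp2) was at 24.4 and 81.1 CPM, 1.74 (1.02 to 2.43), from 6 of the 20 Siah2-/- members. Contractile genes had 0 of 5 past 2-fold in either direction.

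Of the fibroblast cytokines and chemokines 3 of 9 were at least 2-fold lower in Siah2-/- members, none was higher, and the median was -0.63. They were Cxcl10 at 157 and 58.3 CPM, -1.40 (-2.11 to -0.82), the alarmin Il33 at 140 and 60.8 CPM, -1.17 (-1.87 to -0.59), and Cxcl1 at 31.2 and 12.7 CPM. Cxcl1 had 5 Siah2-/- UMIs, and without the single WT cell its interval, -2.92 to 0.079, held 0. Il6 and Cxcl14 had no UMI in any member. Cxcl12, a stromal chemokine that retains lymphocytes, was at 53.3 and 43.1 CPM, -0.27 (-1.15 to 0.45). Of growth factors, receptors and their modulators 4 of 23 were lower and none higher, with a median of -0.40. Igf1 was at 27.8 and 7.60 CPM on 3 Siah2-/- UMIs, and Igfbp7 at 78.9 and 22.8 CPM (48.7 CPM in WT without the single cell). Fgf7, a mitogen for epithelium, was at 38.6 and 12.7 CPM on 5 Siah2-/- UMIs, and Tgfbr1 at 14.8 and 5.07 CPM on 2. Pdgfra was at 115 and 104 CPM, -0.14 (-0.67 to 0.34), and Fgfr1 at 218 and 210 CPM, -0.04 (-0.41 to 0.29). The list of adventitial and pan-tissue fibroblast genes had 1 of 10 higher and 1 lower with a median of 0.00. The one lower was Clec3b, and without the single WT cell 0 of 9 were lower. The one higher was the opioid precursor Penk (38.0 and 114 CPM), with 64.4% of its Siah2-/- UMIs in 1 cell.

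All 9 MHC class I genes, which present peptides to T cells, had a log2 ratio above 0 in Siah2-/- over WT members, but 0 of 9 were past 2-fold, and the median was 0.63. B2m, the invariant light chain, was at 7938 and 12270 CPM, 0.63 (0.58 to 0.68), H2-D1 at 2616 and 4745 CPM, 0.86 (0.78 to 0.94), and H2-K1 at 1151 and 2027 CPM, 0.82 (0.70 to 0.93). In Hmga2-positive cells B2m was at 6613 CPM in WT and 10895 CPM in Siah2-/-. Per member, B2m ranged from 1095 to 19991 CPM in WT (median 7395) and from 5006 to 23998 CPM in Siah2-/- (median 10150), so the libraries overlapped. The interferon response list as a whole was near the background, with 1 of 25 at least 2-fold higher, 1 lower and a median of 0.09. The one higher was Ifitm1 (9.65 and 70.9 CPM, with 1519 CPM in Siah2-/- empty droplets) and the one lower was Cxcl10. Isg15 was at 814 and 651 CPM, -0.32 (-0.52 to -0.13).

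Leukocyte transcripts also differed between the libraries in the same cells. Of the class II genes 4 of 4 were at least 2-fold higher in Siah2-/- members, with Cd74 at 148 and 456 CPM, 1.63 (1.35 to 1.91). The 10 macrophage genes, all seen in the members, summed to 236 CPM in WT and 517 CPM in Siah2-/-, and the 6 natural killer cell genes to 34.0 and 106 CPM, with Klrb1c at 0. The Hmga2-positive cells carried nearly the same levels, at 217 and 483 CPM of macrophage genes. Ptprc-positive WT cells held 16719 CPM of them, and barcodes with 1 to 100 UMIs, which are mostly empty droplets holding free RNA, held 9329 CPM in WT and 10353 CPM in Siah2-/-. Cd74 in the empty droplets was at 7634 and 9920 CPM. What part free RNA takes in the class II, Gzmb, Ccl4 and Ctsc values of the members was not tested. B2m in the empty droplets was at 7556 and 8139 CPM. The MHC class I list summed to 14899 CPM in WT empty droplets and 12600 CPM in WT members. In Siah2-/- it summed to 17527 CPM in empty droplets and 20365 CPM in members. What part free RNA takes in the class I values was not tested.

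Glycolysis and hypoxia genes had 3 of 22 at least 2-fold higher in Siah2-/- members and none lower, with a median of 0.47. Those higher were hexokinase 2 (Hk2, 26.7 and 78.5 CPM), Pgk1 (117 and 263 CPM, 1.17 with 0.81 to 1.51) and the oxidoreductase Ero1l (18.2 and 43.1 CPM). Pkm was at 1154 and 1961 CPM, 0.77 (0.64 to 0.88), and Ldha at 671 and 869 CPM, 0.38 (0.20 to 0.55). Over members of 15000 to below 30000 UMIs the median of the list was 0.15 and Ldha was at -0.054. Cell cycle genes had 1 of 11 at least 2-fold higher, Ube2c at 22.1 and 60.8 CPM, none lower, and a median of 0.68. Over members with a matrix share of 0.5% or more, a cut set after the values were seen, the median was 0.34. What part the low-matrix members take in the cell cycle values was not tested. Complement genes had 2 of 6 higher (C1ra and Cfb) and 1 lower (Serping1, mostly from the single WT cell), with a median of 0.68. Without that cell 1 of 4 was higher and 0 lower, with a median of 0.78. C1ra was at 27.2 and 63.3 CPM, 1.23 (0.46 to 1.94), and the list median was -0.025 over members of 15000 to below 30000 UMIs. Immediate early and heat shock genes, which rise when tissue is dissociated, had 0 of 13 past 2-fold in either direction and a median of -0.02, with Fos at 1061 and 940 CPM.

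Siah2 itself had 12 UMIs in 11 of 96 WT members and 1 UMI in 1 of 20 Siah2-/- members, a log2 ratio of -0.90 (-6.84 to 1.33), so no difference was detectable at this depth. The tags lie at the 3′ end of the transcript, Siah2 UMIs were also present in 8.08% of the Siah2-/- cells with Ptprc, and the count does not check the genotype. In the list of Siah genes and the prolyl hydroxylases they act on, 0 of 5 were past 2-fold in either direction, with a median of -0.24. Hif1a was at 56.2 and 43.1 CPM, -0.35 (-1.22 to 0.37), and Egln3 at 50.5 and 45.6 CPM, -0.12 (-0.97 to 0.59).

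**Figure D5:**
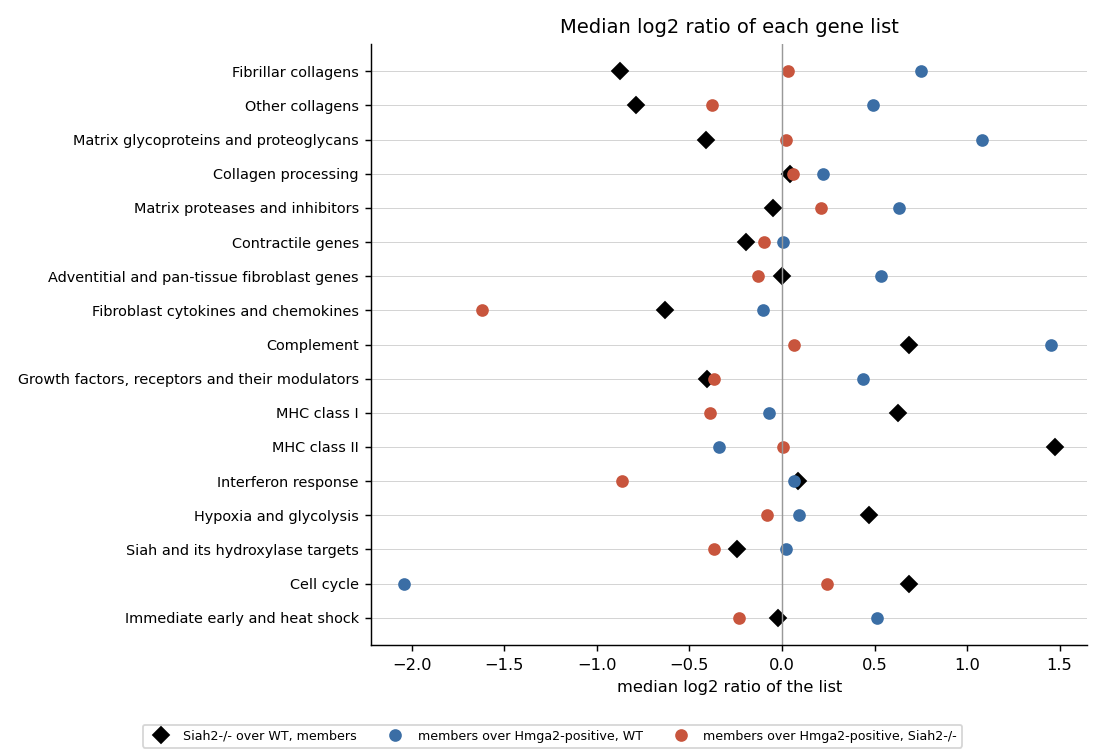
Median log2 ratio of each of 17 gene lists over genes with 20 or more UMIs, for Siah2-/- over WT members (black diamonds) and for members over Hmga2-positive cells within WT (blue) and Siah2-/- (red). Cell cycle genes lie at -2.04 for members in WT and 0.24 in Siah2-/-, and chemokines at -0.10 and -1.62.

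The largest ratios among genes with 50 or more UMIs, no more than 25% of them from 1 cell of the library where the gene was higher, were taken for the 15 genes at each end. Of the 15 highest in Siah2-/- members, 9 were ribosomal protein pseudogenes or predicted genes, such as Rpl36-ps3 (44.3 and 193 CPM), whose reads may belong to near-identical copies and are uncertain. Others were Ctsc, Ccl4, Gzmb and Cd74, which leukocytes express, and Mmp2. Fdps, an enzyme of the mevalonate pathway, was at 42.6 and 190 CPM, 2.16 (1.68 to 2.64), and it was at 0.46 over members of 15000 to below 30000 UMIs and 0.81 among cells with 40 or more matrix UMIs. Of these 15 genes 13 were also at least 2-fold higher in Siah2-/- over WT Hmga2-positive cells, where 5.58% of 11287 genes were. The exceptions were Fdps, at 188 CPM in WT and 149 CPM in Siah2-/- Hmga2-positive cells, and Mmp2, at 16.7 and 31.6 CPM. Of the 15 lowest, 14 had at most 4 UMIs in Siah2-/- members. They were led by Ccdc80, a secreted matrix-binding protein, with 55 and 1 UMIs (31.2 and 2.53 CPM, -3.05 with -8.95 to -1.08), and Stard5, a lipid transfer protein, also with 55 and 1. Inmt, which methylates indolamines, had the most transcripts, 403 and 23 UMIs, at 229 and 58.3 CPM, -1.94 (-2.65 to -1.37). The remaining ones were Gm26802, Mut, Crtc3, Scamp2, Ccdc115, Rnase4, Rpp14, Dnm3os, Cpsf7, Gt(ROSA)26Sor, Ubr2 and Cgnl1. In Hmga2-positive cells 0 of the 15 were at least 2-fold lower in Siah2-/- over WT, where 5.19% of all genes were. Ccdc80 was at 13.4 and 21.9 CPM in Hmga2-positive cells of WT and Siah2-/-, and Inmt at 114 and 61.6 CPM.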

How the data were processed

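The authors aligned reads to mm10/GRCm38 with Cell Ranger (no version is named in the sources used here) and deposited UMI count matrices of all barcodes, a raw count table of 14654 genes for cells kept after their filters on genes per cell and mitochondrial share, and natural log values of normalized counts. Of the natural log values, which the authors deposited after scaling each cell to its total, only the cell names were used. Doublets were not called, and CD45-negative cells that also held leukocyte transcripts were limited only by the rule. Members were chosen on the raw table, and values were summed from the matrices for the same genes. The 2 differed in 1934 WT and 1879 Siah2-/- values. The members and gene lists were chosen with earlier results of these data known. With 1 library per group no test was made. Shares have exact Clopper-Pearson intervals, and ratios have conditional binomial intervals (95%, scipy 1.17.1, numpy 2.4.6) for counting error only. Genes needed 20 UMIs over both sums, and "called" means at least 2-fold. The text names the genes of the 17 lists, the 15 genes at each end of the ratio (50 UMIs or more, at most 25% from 1 cell) and the 25 leading genes. Genes outside these were chosen after their values were seen. TMM factors came from edgeR 4.0.16. The procedure was tested on simulated data without variation between cells. Positions are from GENCODE on GRCm38. A few genes of these lists are not reported here by name.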

Additional observations from a re-analysis of the deposited data

Results flagged for a closer look

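For 4 gene lists the median log2 ratio of members over Hmga2-positive cells had opposite signs in the 2 libraries and lay at least 0.2 from 0 in both. Lists with opposite signs but a median nearer 0 in either library were not flagged, such as interferon response at 0.07 and -0.86. The difference was not tested, because each library is 1 sample. Cell cycle genes stood at -2.04 in WT and 0.24 in Siah2-/-. Growth factors, receptors and their modulators stood at 0.44 and -0.37, other collagens at 0.49 and -0.38, and immediate early and heat shock genes at 0.51 and -0.23. Among cells of 30000 UMIs or more that met the other conditions of the rule, the mean was 14.6 Hmga2 UMIs in WT and 3.53 in Siah2-/-.

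Barcodes that met the rule also lay outside the count table used for the report. In the matrices of all barcodes, 27 WT and 13 Siah2-/- barcodes with 2000 UMIs or more met the rule but were not among the kept cells. Their median depth was 6642 UMIs in WT and 5386 in Siah2-/-. They were 27 of 4515 WT and 13 of 3114 Siah2-/- barcodes of that depth outside the kept cells. Whether they are cells of the same kind as the members was not tested.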

How the results depend on the processing

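The log2 ratio of the member share kept its sign under 7 alternatives for all cells and 6 for cells without Ptprc, while over cells that met the rule apart from Hmga2 it was 0.43. With every barcode of 2000 UMIs or more it was -1.84 for all cells, against -2.56. The counts of genes 2-fold higher and lower in Siah2-/- members, 250 and 565, were 82 and 172 with 50 UMIs required, 846 and 1254 with 5 UMIs, and 755 and 1340 with a fold of 1.5. They stayed within 1.5 times of the main count in 11 of 14 alternatives each. Of 187 list medians, 179 stayed within the interval of the main median. The others were glycolysis and hypoxia at 0.64 as a mean over cells, 0.85 without members with markers of other lineages and 0.15 from 15000 to below 30000 UMIs, immediate early genes at -0.30 as a mean over cells and 0.23 with a matrix share of 0.5% or more, class II at 1.64 and interferon at -0.15 without members with other lineage markers, and the Siah list at -0.58 from 15000 to below 30000 UMIs. Of 737 ratios of named genes 672 stayed within the main interval. The sign differed in 22, of which 3 had a main interval that did not hold 0. Of these 3, Ldha was at -0.054 from 15000 to below 30000 UMIs, and Bgn and Fos were at 0.10 and 0.14 with a matrix share of 0.5% or more. The cause was not tested. Keeping only cells of the normalized table left the same 96 and 20 members, and so did a threshold of 10 matrix UMIs for the shares. These alternatives could hardly move the values, so their agreement is no support. Counts of the raw table again gave 250 and 565 genes. No paired analysis was possible because each group has 1 library.

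Members against Hmga2-positive cells used alternatives chosen after seeing the data. In WT, 418 genes were higher and 763 lower. These were 196 and 382 from 15000 to below 30000 UMIs, and 225 and 436 with a matrix share of 0.5% or more in both. In the first of these the WT medians were 0.54 for fibrillar collagens, 0.60 for matrix glycoproteins, 0.26 for proteases and inhibitors and -0.17 for class II. In the second they were 0.52 for fibrillar collagens, 0.017 for class II and -0.14 for interferon genes, and class II was at -0.060 with Hmga2-positive cells of 20 or more matrix UMIs. In Siah2-/-, 151 genes were higher, and 267 with a matrix share of 0.5% or more. Glycolysis and hypoxia stood at -0.34 from 15000 to below 30000 UMIs and -0.33 with a matrix share of 0.5% or more, where immediate early genes were at 0.019. With 20 Siah2-/- members, a gene at 0 may stand at up to 7.60 CPM, and shares of members with a UMI of a marker mostly dropped when cells were thinned to 3000 UMIs.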

Other observations

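Empty droplets held pigment transcripts at far higher levels than the members or the Hmga2-positive cells. Mlana was at 188 CPM in WT and 398 CPM in Siah2-/- empty droplets, Pmel at 132 and 280 CPM, Tyrp1 at 121 and 246 CPM, and Dct at 109 and 224 CPM. In members these genes had 0, 1, 0 and 0 UMIs in WT and 1, 0, 2 and 0 in Siah2-/-. In Hmga2-positive cells each was at 1.02 CPM or less. The 4 genes encode melanosome proteins. Hemoglobin Hba-a1 was likewise at 509 and 866 CPM in empty droplets, with 1 UMI in WT members and 0 in Siah2-/- members.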
